A study of Mus musculus with 6 samples.

Results

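The genes described here are the core transcription factors of heart muscle, Gata4, Gata6, Nkx2-5, Tbx5, Tbx20, Hand2, Mef2a, Mef2c and Irx4, and the homeodomain-only gene Hopx. They were chosen by name, with earlier results of these data known, and make 10 of the 57010 genes listed. The tissue was mouse heart ventricle at postnatal day 14, with 3 control libraries and 3 labelled Cend1-KO, each group with replicates 1, 3 and 4. The deposited columns of the controls are headed WT, while the titles name them CTL. The numbers in the deposited columns differ from those in the titles, and the title numbers are used here, matched through the labels' descriptions. The sources used here do not give strain, sex, the kind of Cend1 allele, any tissue restriction of the deletion or whether a library is 1 animal, so the tests reflect variation among these libraries that could be technical in part. Values are the authors' TPM, a transcript abundance scaled by length and library total, which can be compared between genes but keeps no sequencing depth.

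GATA4 and GATA6 are zinc-finger proteins, NKX2-5 is a homeodomain protein, TBX5 and TBX20 are T-box proteins, HAND2 is a basic helix-loop-helix protein, and MEF2A and MEF2C are MADS-box proteins. In heart muscle they bind promoters and enhancers of shared targets, often side by side, and regulate each other's genes. IRX4 is an Iroquois homeodomain protein restricted to ventricular muscle. HOPX has a homeodomain that does not bind DNA. It lies downstream of NKX2-5 in the mouse heart, opposes the factor SRF and recruits the deacetylase HDAC2. Hopx is also transcribed outside the heart, in type 1 alveolar cells of the lung.

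Promoter sequences were taken from RefSeq (GRCm38.p6), as windows of 300 bases from 250 before to 50 after a start site, and 7 of the 10 genes had at least 1. The genes not matched were Gata4, Gata6 and Tbx5. The windows of Hopx are shown because it was the gene with the largest difference below, that of Mef2a because it holds a motif of its own family, and that of Nppa, the atrial natriuretic peptide gene, because it is a shared target of several of these factors. Capitals mark matches on either strand to GATAA (bound by GATA factors), AAGTG (NKX2-5), AGGTGT (T-box factors), the MEF2 motif and the SRF motif, each printed 5′ to 3′ on the strand of the gene. The upstream Hopx window was chr5:77115074-77115373 (minus strand), the downstream one chr5:77095218-77095517 (minus strand), that of Mef2a chr7:67372809-67373108 (minus strand) and that of Nppa chr4:148000472-148000771 (plus strand).
Hopx upstream: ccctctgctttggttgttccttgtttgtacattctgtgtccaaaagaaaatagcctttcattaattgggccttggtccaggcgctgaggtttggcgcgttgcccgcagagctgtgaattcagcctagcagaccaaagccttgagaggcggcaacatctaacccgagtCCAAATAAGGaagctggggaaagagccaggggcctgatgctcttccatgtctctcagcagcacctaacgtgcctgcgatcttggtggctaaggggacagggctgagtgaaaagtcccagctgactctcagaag
Hopx downstream: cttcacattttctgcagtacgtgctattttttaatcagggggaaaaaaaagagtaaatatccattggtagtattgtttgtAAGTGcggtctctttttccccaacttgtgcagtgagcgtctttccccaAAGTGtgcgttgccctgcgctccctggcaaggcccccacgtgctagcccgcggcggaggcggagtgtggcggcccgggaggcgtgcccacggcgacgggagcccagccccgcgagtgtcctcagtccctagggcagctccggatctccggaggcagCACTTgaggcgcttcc
Mef2a: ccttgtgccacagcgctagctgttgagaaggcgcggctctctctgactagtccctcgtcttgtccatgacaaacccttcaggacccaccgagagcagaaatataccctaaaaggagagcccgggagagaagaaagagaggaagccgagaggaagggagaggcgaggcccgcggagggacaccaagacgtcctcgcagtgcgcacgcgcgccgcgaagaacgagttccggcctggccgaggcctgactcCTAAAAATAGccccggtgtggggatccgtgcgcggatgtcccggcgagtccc
Nppa: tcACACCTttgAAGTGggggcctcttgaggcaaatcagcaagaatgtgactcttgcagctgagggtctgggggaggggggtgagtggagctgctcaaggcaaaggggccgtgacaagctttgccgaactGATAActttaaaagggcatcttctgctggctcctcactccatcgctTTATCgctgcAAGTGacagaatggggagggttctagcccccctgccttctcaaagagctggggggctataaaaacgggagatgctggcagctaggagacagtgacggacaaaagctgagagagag
The upstream Hopx window held 1 SRF motif and none of the other marked motifs, and the downstream window held 3 copies of AAGTG. The Mef2a window held 1 MEF2 motif, beginning 2 bases before the start site, and the Nppa window held 2 copies of GATAA, 2 of AAGTG and 1 of AGGTGT, none of them overlapping. Of 32851 mouse promoter windows of the same length, 1.63% held the SRF motif, 0.557% the MEF2 motif, 46.4% AAGTG, 25.4% GATAA and 13.7% AGGTGT. The windows of Nkx2-5, Tbx20 and Irx4 held none of these 5 motifs, while the window of Hand2 held 2 copies of GATAA and 1 of AAGTG. Mef2c has 3 windows, each with 1 AAGTG, and the second also held 2 copies of GATAA and 1 of AGGTGT. The E-box CANNTG, the site of HAND2 and its partners, was found in 72.3% of windows.

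The libraries themselves differed before any factor was considered. Cend1 was at 1.44, 1.99 and 1.54 TPM in the controls and listed at 0 in the 3 Cend1-KO libraries. Mitochondrial-genome transcripts took 17.9% to 22.9% of TPM in 5 libraries and 34.9% in Cend1-KO replicate 3. Nuclear copies of mitochondrial genes took a further 8.08% to 10.3% in those 5 libraries and 17.3% in Cend1-KO replicate 3. The difference of each of the 10 genes is also given after median-of-ratios scaling, which divides libraries by factors from 0.715 (Cend1-KO replicate 3) to 1.23 (Cend1-KO replicate 1). The 10 lung epithelial markers summed to 504.2 and 831.9 TPM in Cend1-KO replicates 1 and 4, against 0.556 to 1.76 in the controls and 0.634 in Cend1-KO replicate 3. For Xist, control replicate 4 gave 16.4 TPM, Cend1-KO replicate 1 gave 7.37, and the others gave at most 0.0555. The 12 cardiomyocyte markers summed to 63724.2 to 71070.8 TPM in controls and to 44503.6, 35741.5 and 53024.1 in Cend1-KO replicates 1, 3 and 4, so the muscle identity of the tissue was present in every library and the groups did not overlap. None of these 12 was called. After median-of-ratios scaling the list was also taken as its median log2 difference from the control mean. That median was -0.82, -0.16 and -0.3 in Cend1-KO replicates 1, 3 and 4, and 0.11, 0.03 and -0.13 in controls. The part of mitochondrial RNA in the sums was not tested. The 5 erythroid markers summed to 1389.2 to 4472.7 TPM in controls and 10630.3 to 24495.4 in Cend1-KO, with 3 called higher. The 6 adipocyte markers summed to 1236.2 to 1519.1 and 1954.0 to 4024.2, with 3 of 4 tested called higher. Of the 9 fibroblast markers 1 was called higher, where 0.79% of all tested genes were. The scaled median of the fibroblast list was 1.14, 1.26 and 0.82 in Cend1-KO replicates 1, 3 and 4, and -0.37 to 0.29 in controls. The part of these other cell types in the differences below was not tested. In bulk tissue, fewer muscle cells and less RNA per muscle cell cannot be told apart.

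All 10 genes passed the filter of at least 1 TPM in at least 3 libraries. In the controls Hopx was by far the most abundant, at 633.1 ± 73.0 TPM (SD, n = 3), and ranked 280 among all genes by its mean over the 6 libraries. Nkx2-5, Mef2a and Gata4 followed at 43.2 ± 6.41, 41.3 ± 4.75 and 38.4 ± 6.17 TPM, levels that did not differ beyond their spread. Gata6 (21.6 ± 3.75) and Hand2 (20.5 ± 2.38) formed the next pair, then Tbx20 (16.2 ± 1.89) and Mef2c (15.4 ± 2.58), each pair again within its spread. Irx4 was at 9.53 ± 2.09 TPM and Tbx5 was the lowest, at 4.76 ± 0.815. In Cend1-KO ventricles the order was Hopx (290.6 ± 104.0), Mef2a (29.9 ± 5.91), Nkx2-5 (28.7 ± 5.82), Gata4 (21.7 ± 6.76), Gata6 (19.7 ± 3.26), Hand2 (16.9 ± 3.68), Mef2c (15.2 ± 5.95), Tbx20 (9.53 ± 1.30), Irx4 (7.08 ± 2.35) and Tbx5 (3.05 ± 0.504). Gata4 thus stood above Gata6 in every control and close to it in Cend1-KO, and Tbx20 stood beside Mef2c in controls and below it in each Cend1-KO library.

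**Figure D1:**
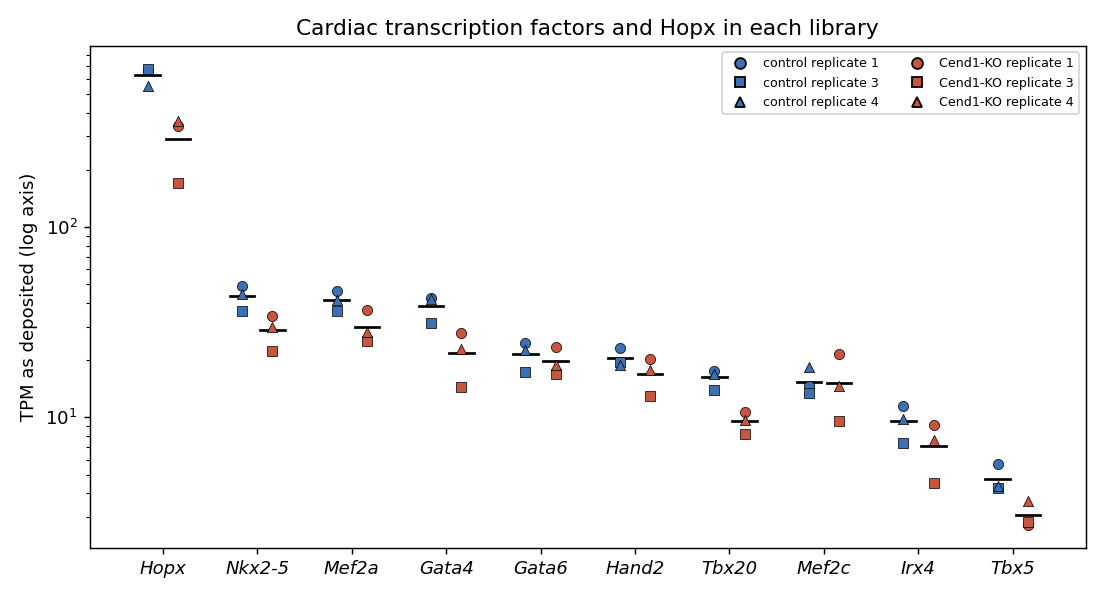
TPM as deposited on a log axis for the 10 genes, ordered by their control mean, with a point for each of the 3 control and 3 Cend1-KO libraries and a bar at each group mean. Hopx lies between 549.1 and 680.7 TPM in controls and between 171.4 and 359.9 in Cend1-KO, and 9 of the 10 genes have their lowest value of all libraries in Cend1-KO replicate 3.

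The comparison asks how the core factors differ in ventricles without Cend1. Hopx, at 45.9% of its control mean, was the only one of the 10 to pass the test across all genes. Gata4 (56.6%), Tbx20 (58.9%), Tbx5 (64.1%) and Nkx2-5 (66.4%) were also below every control in each Cend1-KO library without passing it. Gata6 (91.1%) and Mef2c (98.7%) were closest to their control means. The test was limma on log2(TPM + 1), and a gene is called at a Benjamini-Hochberg adjusted p under 0.05 over 13542 tested genes. It called 1 of the 10 lower and 0 higher, where 0.908% of all tested genes were called lower, 0.79% higher and 1.7% in either direction. At an unadjusted p under 0.05 the same test held 5 of the 10, Hopx, Gata4, Tbx20, Nkx2-5 and Tbx5, all lower, where 10.4% of all tested genes were lower and 4.98% higher at that level. These 5 were the genes whose groups did not overlap, all of them lower in Cend1-KO, and 18.6% of all tested genes lay below every control in the same way (24.3% were apart in either direction). All 10 differences were below 0, as were 62.4% of those of all tested genes, with a median of -0.48 on the log2 scale against -0.11 for all genes. After median-of-ratios scaling 3 of the 10 were called lower, Hopx, Gata4 and Tbx20, where 4.29% of tested genes were called lower, 6.12% higher and 10.4% in either direction.

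**Figure D2:**
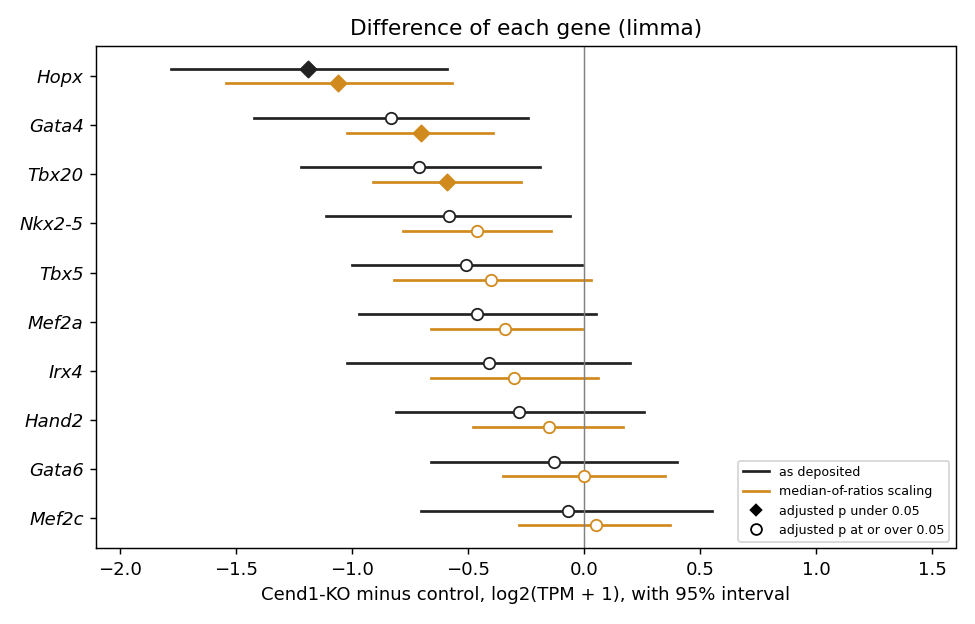
Cend1-KO minus control difference of each gene on the log2(TPM + 1) scale with its 95% interval from limma, as deposited and after median-of-ratios scaling, with filled diamonds for an adjusted p under 0.05. Hopx is called on both scales, Gata4 and Tbx20 only after scaling, and the intervals of Gata6, Mef2c, Hand2 and Irx4 include 0 on both.

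Hopx (ENSMUSG00000059325; mm10 chromosome 5, 77086988 to 77115121, minus strand, with exons of 1516 bp) had 669.5, 680.7 and 549.1 TPM in the controls, taken as replicates 1, 3 and 4 here and throughout, against 340.5, 171.4 and 359.9 in Cend1-KO. Every Cend1-KO library was below every control, and replicate 3 was the lowest. The difference was -1.19 (SE 0.28; limma adjusted p = 0.0477) as deposited and -1.06 (SE 0.22; adjusted p = 0.0156) after median-of-ratios scaling, where the Cend1-KO libraries were at 276.8, 239.7 and 364.3. Hopx rests close to the threshold: the adjusted p was 0.141 and 0.184 without control replicates 1 and 3, and between 0.0515 and 0.348 with a pseudocount of 0.1, a filter at 5 TPM, no filter, no robust prior or no trend. Without Cend1-KO replicate 3, the library with most mitochondrial RNA, the difference was -0.85 (adjusted p = 0.00259). The 2 Cend1-KO libraries with lung transcripts had higher Hopx than the one without, and Ager, a marker of the alveolar cells that also transcribe Hopx, was at 9.69 and 34.6 TPM in them. Other genes of the lung list did not all follow Ager. In Cend1-KO replicates 1 and 4 Rtkn2 was at 0.603 and 1.05 TPM, against at most 0.674 in controls. Aqp5 was at 0.752 and 3.77 TPM in them, against at most 0.95 in controls. With Cend1-KO replicates 1 and 4 left out the Hopx difference was -1.87, from Cend1-KO replicate 3 alone. The median difference of all tested genes in that fit was -0.47, against -0.11 with all libraries. The part of lung cells in the Hopx value was not tested. Hopxos, an antisense transcript sharing 412 exonic bases with Hopx, was at 0.124 to 0.395 TPM, far below Hopx itself. The kit is not stated to mark strand.

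Genes whose profile over the 6 libraries was most like that of Hopx were sought after scaling among 1634 others averaging at least 50 TPM. The 5 highest Pearson coefficients belonged to Tnnt1 (0.997), Banf1 (0.996), Polr2f (0.995), Dhrs4 (0.994) and Timm10 (0.993). They are given as a description over 6 libraries that share their group difference. As deposited, Tnnt1, the slow skeletal troponin T, had group means of 72.1 TPM (control) and 28.4 TPM (Cend1-KO), and Timm10, a chaperone of mitochondrial protein import, 155.8 and 84.6 TPM. Tnnt2, the cardiac troponin T, had a coefficient of 0.754, at rank 475 of the 1634. Of 3 known SRF targets, Nppa had 0.762 (rank 464), cardiac actin (Actc1) 0.588 (rank 712) and skeletal actin (Acta1) -0.063 (rank 1126).

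Of the zinc-finger factors, Gata4 (ENSMUSG00000021944; mm10 chromosome 14, 63198922 to 63271692, minus strand) was at 42.2, 31.3 and 41.7 TPM in the controls and 27.8, 14.4 and 22.9 in Cend1-KO replicates 1, 3 and 4. The groups did not overlap. The difference of Gata4 was -0.83 (SE 0.27; adjusted p = 0.165) as deposited and -0.70 (SE 0.14; adjusted p = 0.0153) after scaling. As deposited, Gata4 passed without Cend1-KO replicate 1 (-1.02; adjusted p = 0.0262) and in none of the other 5 fits that left out a library (adjusted p from 0.0897 to 0.622), with the smallest difference, -0.57, without Cend1-KO replicate 3. Gata6 (ENSMUSG00000005836; chromosome 18, 11052064 to 11085635, plus strand) was at 24.7, 17.4 and 22.6 TPM in controls and 23.3, 16.9 and 18.9 in Cend1-KO, and the groups overlapped. The Gata6 difference was -0.13 with a 95% interval from -0.66 to 0.40 (adjusted p = 0.851), and -0.00084 (95% interval -0.35 to 0.35; adjusted p = 0.998) after scaling. The sign turned with upper-quartile scaling (0.0026) and with mitochondrial and hemoglobin genes removed (0.11). An antisense transcript, 1010001N08Rik, shares 93 exonic bases with Gata6 and was at 6.07 to 11.9 TPM, so reads of the shared stretch cannot be assigned without strand.

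The ratio of both GATA genes within a library is free of library scaling. It was 1.70, 1.79 and 1.85 in control replicates 1, 3 and 4 and 1.19, 0.854 and 1.22 in Cend1-KO replicates 1, 3 and 4. All 3 Cend1-KO ratios were lower, and in replicate 3 Gata6 exceeded Gata4. For none of the 4 ratios compared was the share of other gene pairs lying apart in this way computed. The log2 difference of the Gata4 to Gata6 ratio was -0.73, with p = 0.10 in a two-sided exact permutation test, the smallest that 3 against 3 libraries allow, and 0.20 after adjustment over the 4 ratios compared. Leaving out each library in turn moved it between -0.82 and -0.56. Gata6 is also transcribed in vessel, epicardial and lung cells. The 7 endothelial markers summed to 268.3 to 329.4 TPM in controls and to 859.4, 281.3 and 357.6 in Cend1-KO replicates 1, 3 and 4, and the 9 fibroblast markers to 1326.1 to 2621.1 and to 4820.0, 3198.9 and 3207.8. The 5 epicardial markers summed to 6.55 to 114.3 TPM in controls and to 40.2, 20.1 and 40.5 in Cend1-KO. The part of these cells in the ratio was not tested.

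**Figure D3:**
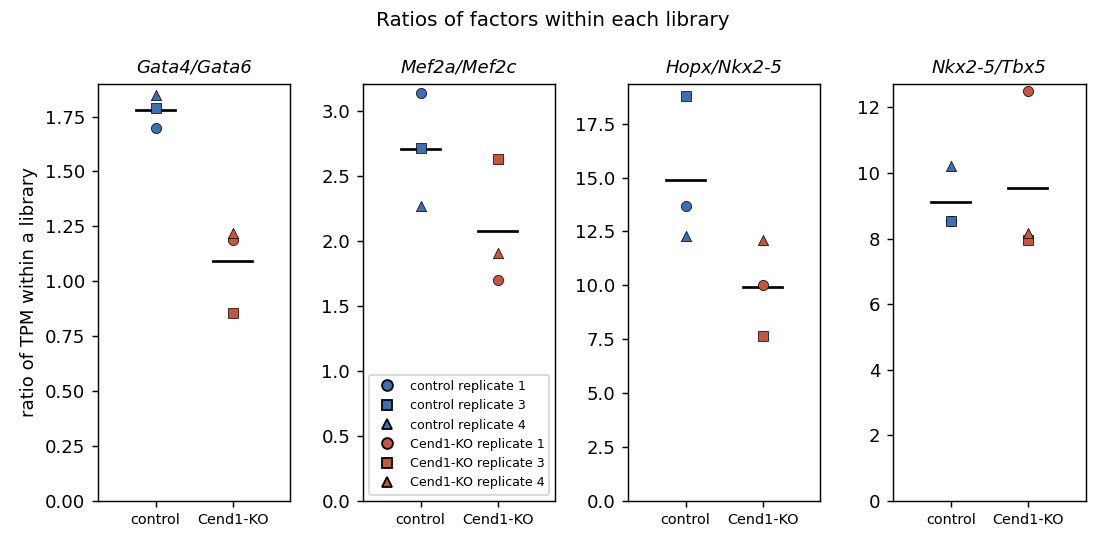
Ratio of TPM within each library for the 4 pairs compared, with axes from 0 and a bar at each group mean (n = 3 libraries per group). The Gata4 to Gata6 ratio lies at 1.70 or above in controls and at 1.22 or below in Cend1-KO, while the Nkx2-5 to Tbx5 ratios of the groups overlap.

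Nkx2-5 (ENSMUSG00000015579; chromosome 17, 26838664 to 26845009, minus strand) was at 48.8, 36.2 and 44.6 TPM in controls and 33.9, 22.4 and 29.7 in Cend1-KO. The groups did not overlap, though the lowest control (replicate 3) and the highest Cend1-KO library (replicate 1) lay close together. The difference of Nkx2-5 was -0.58 (95% interval -1.11 to -0.06; adjusted p = 0.279), and -0.46 (adjusted p = 0.070) after scaling. Hopx per Nkx2-5 was 13.7, 18.8 and 12.3 in controls and ranged from 7.66 (replicate 3) to 12.1 (replicate 4) in Cend1-KO, so the highest Cend1-KO ratio was just under the lowest control. The log2 difference of that ratio was -0.59 (exact permutation p = 0.10, the smallest possible, adjusted 0.20).

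Tbx20 (ENSMUSG00000031965; chromosome 9, 24718138 to 24774303, minus strand), a T-box factor needed to maintain adult heart muscle in mice, was at 17.6, 14 and 16.9 TPM in controls and 10.7, 8.14 and 9.73 in Cend1-KO. The groups were well apart, with the highest Cend1-KO library below the lowest control by more than the SD of either group. Its difference was -0.71 (SE 0.24; adjusted p = 0.179) as deposited and -0.59 (SE 0.14; adjusted p = 0.0304) after scaling. Tbx5 (ENSMUSG00000018263; chromosome 5, 119832668 to 119885219, plus strand), which drives conduction and chamber genes, was at 5.70, 4.23 and 4.36 TPM in controls and 2.72, 2.81 and 3.63 in Cend1-KO. As deposited the groups did not overlap, but after scaling they did, since Cend1-KO replicate 3 (3.93) then exceeded control replicate 4 (3.85). The Tbx5 difference was -0.51 (95% interval -1.0 to -0.01; adjusted p = 0.315), and -0.40 (adjusted p = 0.20) after scaling. Nkx2-5 per Tbx5 was 8.55, 8.55 and 10.2 in controls and 12.5, 7.97 and 8.18 in Cend1-KO (log2 difference 0.04; exact permutation p = 1.0).

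Hand2 (ENSMUSG00000038193; chromosome 8, 57320983 to 57324633, plus strand), a factor of ventricular growth, was at 23.2, 19.5 and 18.8 TPM in controls and 20.2, 12.9 and 17.7 in Cend1-KO, with overlapping groups. Its difference was -0.28 (95% interval -0.81 to 0.26; adjusted p = 0.629), and -0.15 (adjusted p = 0.505) after scaling. The divergent long noncoding gene Hand2os1, whose transcription is known to control Hand2 in the mouse, shares 461 exonic bases with it and was more abundant, with means of 75.0 ± 15.8 TPM (control) and 86.8 ± 17.5 (Cend1-KO) (SD, n = 3 each; limma adjusted p = 0.732). Reads in the shared stretch cannot be assigned without strand, and the Hand2 level is uncertain to that extent.

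Mef2a (ENSMUSG00000030557; chromosome 7, 67231163 to 67372858, minus strand), the main MEF2 gene of postnatal heart, was at 45.9, 36.4 and 41.6 TPM in controls and 36.6, 25.3 and 28.0 in Cend1-KO. Only Cend1-KO replicate 1 reached the control range. The Mef2a difference was -0.46 (95% interval -0.97 to 0.05; adjusted p = 0.377), and -0.34 (adjusted p = 0.168) after scaling, where the groups no longer overlapped. Lysmd4, on the opposite strand, shares 302 exonic bases with Mef2a and was at 7.54 to 13.1 TPM. Mef2c (ENSMUSG00000005583; chromosome 13, 83504034 to 83667080, plus strand), known for early heart formation and also transcribed in endothelium, was at 14.6, 13.4 and 18.3 TPM in controls and spread from 9.62 to 21.5 in Cend1-KO. Its highest value was in Cend1-KO replicate 1, the library with the highest endothelial sum, and the part of those cells was not tested. The Mef2c difference was -0.07 (95% interval -0.70 to 0.55; adjusted p = 0.934), and its sign turned under median-of-ratios scaling (0.05; adjusted p = 0.859). Mef2a per Mef2c was 3.14, 2.72 and 2.27 in controls and 1.70, 2.63 and 1.91 in Cend1-KO, with a log2 difference of -0.39 (exact permutation p = 0.20, adjusted 0.267) and overlapping groups.

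Irx4 (ENSMUSG00000021604; chromosome 13, 73260479 to 73269608, plus strand) was at 11.5, 7.34 and 9.74 TPM in controls and 9.12, 4.51 and 7.59 in Cend1-KO. The groups overlapped, and the difference was -0.41 (95% interval -1.02 to 0.20; adjusted p = 0.522), and -0.30 (adjusted p = 0.251) after scaling. The atrial markers Myl7, Sln, Myl4 and Bmp10 summed to 12.6 to 24.4 TPM in controls and 13.8 to 26.7 in Cend1-KO, so atrial transcripts were low in every library and the summed ranges overlapped. Within that list the atrial myosin light chain Myl7 was above every control, at 4.12, 10.2 and 12.1 TPM in Cend1-KO against at most 3.71, and Bmp10 was at 0.543 TPM in Cend1-KO replicate 3 against at most 0.0112 in controls.

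The factors were also set against heart muscle transcripts of the same library, which within a library moves all 10 by the same amount and leaves their order as it was. The mean log2 TPM of the 12 cardiomyocyte markers was lower in Cend1-KO replicates 1, 3 and 4 by 0.67, 0.74 and 0.39 than the control mean. Set against that mean, Hopx remained below every control, at -0.22, -1.14 and -0.42 in Cend1-KO replicates 1, 3 and 4, where controls spread from -0.17 to 0.22. Gata4 (-0.26 on average), Tbx20 (-0.17), Tbx5 (-0.04), Nkx2-5 (0.00), Mef2a (0.12), Irx4 (0.14) and Mef2c (0.52) overlapped the controls. Gata6 was above every control, at 0.79, 0.40 and 0.21, and so was Hand2, at 0.65, 0.08 and 0.19 where the highest control was at 0.04. Cend1-KO replicate 1 stood highest of the 3 for every gene but Tbx5. These relative values are a description without a test, and the share of all tested genes apart from the controls on this scale was not computed. The markers include Myh6, Actc1, Tnni3, Tnnc1, Ryr2 and Mybpc3, which are themselves targets of the factors.

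**Figure D4:**
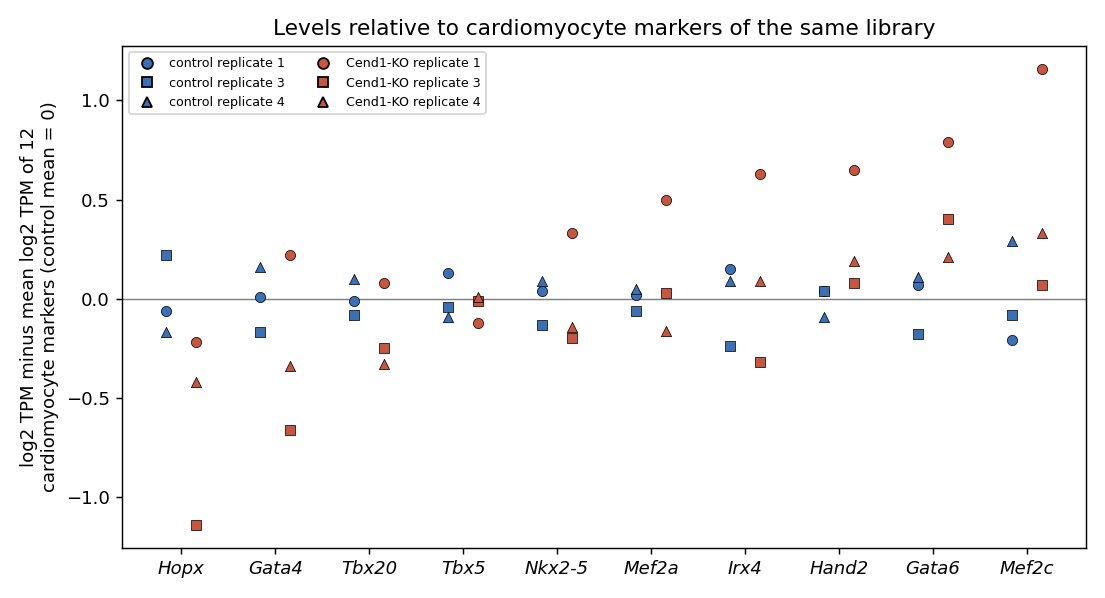
Log2 TPM of each gene minus the mean log2 TPM of 12 cardiomyocyte markers in the same library, set to 0 at the control mean, with a point for each of the 3 control and 3 Cend1-KO libraries. Hopx is below every control in all 3 Cend1-KO libraries, Gata6 and Hand2 are above every control, and the other 7 genes overlap. The share of all tested genes apart from the controls on this scale was not computed.

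Relatives and cofactors of these factors had differences centred near 0. Of 37 listed genes 32 were tested, and limma called 0 lower and 0 higher (0.908% and 0.79% of all tested genes). At an unadjusted p under 0.05, 4 of 32 were lower and 0 higher (10.4% and 4.98% of all tested genes). Differences were below 0 for 16 of 32 (62.4% of all tested genes), with a median of -0.01 against -0.11 for all genes. Smarcd3, a chromatin remodelling subunit that helps GATA4 and TBX5 reach DNA, was at 42.5, 41.8 and 40.2 TPM in controls and 20.8, 18.4 and 24.5 in Cend1-KO. Those groups were far apart, with a difference of -0.94 (adjusted p = 0.0559) as deposited and -0.82 (adjusted p = 0.0195) after scaling, where Smarcd3 was the one gene of the list called. Smyd1, a muscle methyltransferase upstream of Hand2, was at 242.2 ± 7.82 and 142.7 ± 9.99 TPM (SD, n = 3 each; limma adjusted p = 0.0887, and 0.0713 after scaling). The Iroquois factor Irx5 and the homeodomain factor Meis1 had differences of -0.62 and -0.59 (adjusted p = 0.215 and 0.30). Among partners of HOPX, Srf spread from 21.9 to 38.7 TPM in controls and from 13.7 to 33.7 in Cend1-KO (adjusted p = 0.554), and Hdac2 averaged 51.6 ± 5.90 and 44.9 ± 6.60 TPM (adjusted p = 0.721). Zfpm2, the cofactor that binds GATA4, was at 3.49 ± 0.598 and 3.31 ± 0.277 TPM (adjusted p = 0.940). Srf, Hdac2, Zfpm2 and Mef2d were named for their roles after their values were seen, and Mef2d spread from 16.4 to 28.3 TPM in controls and from 12.6 to 19.9 in Cend1-KO (adjusted p = 0.482).

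Shared targets of GATA4, NKX2-5 and TBX5 include the contractile genes of heart muscle. The list holds several of the 12 cardiomyocyte markers, whose mean log2 TPM itself had a Cend1-KO minus control difference of -0.6. Whether this list or the MEF2 and SRF target lists below differ beyond heart muscle transcripts in general was not tested. Of 20 listed and tested, 1 was called lower and 0 higher (0.908% and 0.79% of all tested genes). At an unadjusted p under 0.05, 9 were lower and 0 higher (10.4% and 4.98% of all tested genes). Differences were below 0 for 19 (62.4% of all tested genes), and the median was -0.48 against -0.11 for all genes. The called gene was Nppa, whose promoter is printed above, at 436.4, 530.8 and 324.0 TPM in controls and 187.2, 188.5 and 141.6 in Cend1-KO. Every Cend1-KO library was well below every control, with a difference of -1.30 (SE 0.24; adjusted p = 0.0150). The Nppa call was lost on leaving out control 1, control 3 or Cend1-KO 4 (adjusted p = 0.0578, 0.106 and 0.060). Cardiac actin (Actc1), troponin C (Tnnc1), myosin-binding protein C (Mybpc3) and alpha myosin heavy chain (Myh6) had differences of -0.68, -0.66, -0.66 and -0.75 (adjusted p = 0.119, 0.143, 0.155 and 0.182). Without Cend1-KO replicate 3 the count called lower was 4, namely Nppa, Actc1, Tnnc1 and Mybpc3, in a fit that called 2.35% of all tested genes lower. The count was 0 without control 1, control 3 or Cend1-KO 4.

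Of 13 tested MEF2 targets 1 was called lower and 0 higher (0.908% and 0.79% of all tested genes). At an unadjusted p under 0.05, 6 were lower and 0 higher (10.4% and 4.98% of all tested genes). Differences were below 0 for 11 (62.4% of all tested genes), and the median was -0.43 against -0.11 for all genes. The called gene of this list was Ppargc1a, a coactivator of mitochondrial genes, at 39.3, 24.7 and 25.7 TPM in controls and 11.7, 12.4 and 10.2 in Cend1-KO, groups that did not overlap (-1.28; adjusted p = 0.0219). The Ppargc1a call was lost on leaving out control 1, control 3 or Cend1-KO 4 (adjusted p = 0.180, 0.0647 and 0.104). Xirp1, an actin-binding protein of intercalated discs, was at 23.5 ± 5.23 and 12.2 ± 1.90 TPM (SD, n = 3 each; limma adjusted p = 0.119, and 0.0234 after scaling). Pgam2, a glycolytic enzyme of muscle, and Hrc, a calcium-binding protein of the sarcoplasmic reticulum, had differences of -0.83 and -0.68 (adjusted p = 0.0980 and 0.182). With Cend1-KO replicate 3 left out, 4 of the 13 were called lower, Ppargc1a, Smyd1, Pgam2 and Xirp1, against 2.35% of all tested genes.

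Of 15 listed SRF targets 13 were tested, and 1 was called lower (Nppa again) and 0 higher (0.908% and 0.79% of all tested genes). At an unadjusted p under 0.05, 5 were lower and 0 higher (10.4% and 4.98% of all tested genes). Differences were below 0 for 10 (62.4% of all tested genes), and the median was -0.38 against -0.11 for all genes. Vcl, the junction protein vinculin, was at 17.5, 12.9 and 16.8 TPM in controls and 8.24, 7.41 and 7.72 in Cend1-KO, groups that did not overlap (-0.92; adjusted p = 0.0747, and 0.0190 after scaling). Fhl2 and Tpm1, a LIM-domain protein and alpha tropomyosin, had differences of -0.58 and -0.48 (adjusted p = 0.217 and 0.295). Acta1, a known SRF target, spread from 73.4 to 147.8 TPM in controls and from 37.7 to 174.4 in Cend1-KO (-0.19; adjusted p = 0.905), and was named for that role after its values were seen. Leaving out Cend1-KO replicate 3 gave 3 of the 13 called lower, Nppa, Actc1 and Vcl, again against 2.35% of all tested genes, and leaving out control 1, control 3 or Cend1-KO 4 gave 0.

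**Figure D5:**
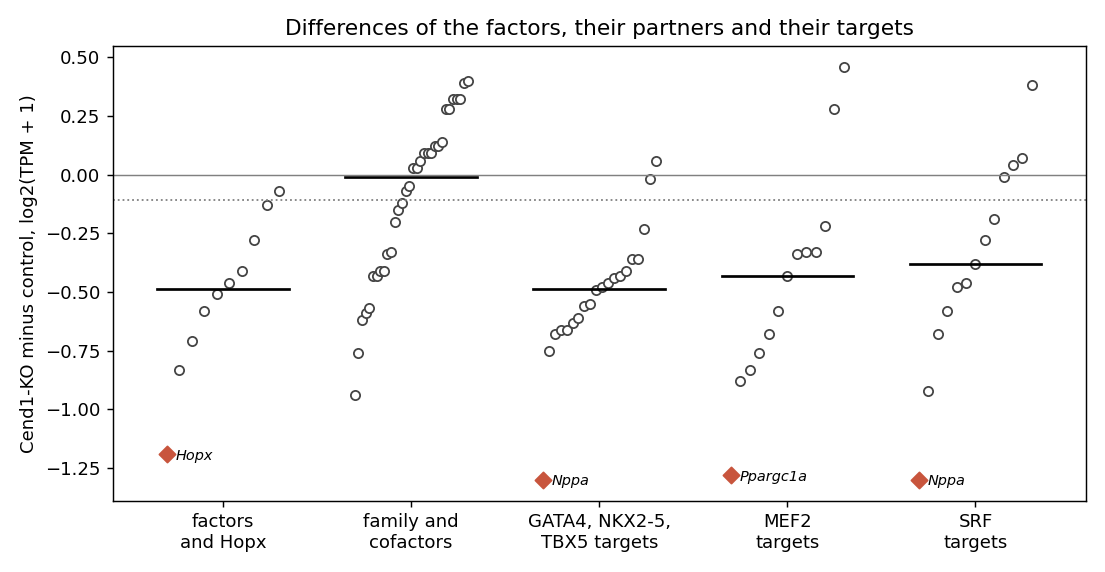
Cend1-KO minus control differences on the log2(TPM + 1) scale of all tested genes of the 5 lists, with open circles for genes that did not pass, red diamonds for called genes, a black bar at each list median and a dotted line at the median of all genes (-0.11). The medians of the factors and of their 3 target lists lie between -0.48 and -0.38, and that of the relatives and cofactors at -0.01. The mean log2 TPM of the 12 cardiomyocyte markers, some of them in the target lists, had a difference of -0.6 (not drawn).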

How the data were processed

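RNA of heart ventricles was extracted with TRIzol and made into libraries with the NEBNext Ultra RNA kit, per the labels' protocols. The submitters' processing notes name mm10 and, as tools, featureCounts 1.5.0-p3, HISAT2 2.0.5, fastp and CASAVA. The deposited table holds TPM made by the authors, as each column sums to 1000000. The sources used here do not give the annotation or the step to TPM, and depth is unknown. Of 57010 identifiers 52081 matched GENCODE M21. The members and lists were chosen with earlier results of these data known.

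Genes reaching 1 TPM in 3 or more libraries were fitted with limma 3.58.1 (R 4.3.3) on log2(TPM + 1), with a mean-variance trend, a robust prior and Benjamini-Hochberg adjustment. The fit was tested on simulated data with independent noise for each value, so shifts shared by a whole library were not covered. Ratios of TPM within a library were compared by two-sided exact permutation tests. Named are the 10 genes, Cend1, called genes of each list and the 4 next by p, and the 5 genes most like Hopx. Other genes are named too, such as single cell-type markers, Tnnt2, Xist and overlapping genes. Only some of these are marked in the text as outside this rule. Kdm1a, also in that rule, averaged 16.7 ± 1.19 TPM (control) and 12.9 ± 3.33 (Cend1-KO; SD, n = 3 each; limma adjusted p = 0.503). Alternatives were other scalings (median of ratios, upper quartile, and removal of mitochondrial and hemoglobin genes). That removal also took out the nuclear copies of mitochondrial genes. Other alternatives were no filter, a filter at 5 TPM, pseudocounts of 0.1 and 0.5, and other priors. The replicate number as a block and each library left out were also run. Leaving out Cend1-KO replicates 1 and 4 together was chosen after the data were seen.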

Additional observations from a re-analysis of the deposited data

How the results depend on the processing

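All differences of Hopx, Gata4, Nkx2-5, Tbx5, Tbx20, Hand2, Mef2a and Irx4 stayed below 0 under every alternative run. Gata6 turned to 0.0026 with upper-quartile scaling and 0.11 with mitochondrial and hemoglobin genes removed. Mef2c turned to 0.05 with median-of-ratios or upper-quartile scaling, with or without the replicate block under the former, to 0.16 with mitochondrial and hemoglobin genes removed, to 0.05 without control replicate 4, to 0.20 without Cend1-KO replicate 3 (from -0.34 to 0.20 with each library left out) and to 0.13 without that library after scaling. Hopx lost its call under 7 of 19 alternatives, and the cause was not tested.

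Counts called lower are given in the order factors and Hopx, relatives and cofactors, GATA4, NKX2-5 and TBX5 targets, MEF2 targets and SRF targets. As deposited they were 1, 0, 1, 1 and 1 of 10, 32, 20, 13 and 13 tested. Totals of all genes called, with their share of the tested genes, count both directions. The counts were 3, 1, 2, 2 and 2 with median-of-ratios scaling (1407 genes called in all, 10.4%, with 4.29% of tested genes called lower). They were the same with upper-quartile scaling (1434, 10.6%), and 1, 1, 1, 1 and 2 with mitochondrial and hemoglobin genes removed (1032, 7.12%). With no filter limma called 0 of 30114 genes, with 2894 at an unadjusted p under 0.05, so every count was 0. With a filter at 5 TPM 116 were called (1.34%) and the factors went to 0. A pseudocount of 0.1, no robust prior and no trend also took the factors to 0. After scaling without Cend1-KO replicate 3 (1369 calls, 10.1%) the counts were 3, 3, 3, 3 and 2, and 4 relatives and cofactors were then called higher. With 1 library left out the counts ranged from 0 to 2, 0 to 2, 0 to 4, 0 to 4 and 0 to 3. All calls then ranged from 65 (0.486%, without control replicate 3) to 808 (6.0%, without Cend1-KO replicate 3). Without Cend1-KO replicates 1 and 4 (5539 calls, 42.7% of tested genes, from 1 Cend1-KO library assumed to vary like the controls) they were 8, 10, 12, 7 and 8.

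The labels do not say whether same-numbered libraries are paired. Deviations of same-numbered libraries from their group means correlated across genes at -0.172, 0.044 and -0.12. With so few libraries per group these values cannot exclude a pairing. With the replicate block 738 genes were called (5.45% of those tested) and the counts were 1, 1, 1, 2 and 2. The block after median-of-ratios scaling gave 1113 genes (8.23%) and counts of 2, 1, 1, 2 and 2. The Nkx2-5 to Tbx5 ratio changed sign with a pseudocount of 1 (-0.08) and ranged from -0.17 to 0.15 with 1 library left out, while the other 3 ratios kept theirs. TPM keeps no depth, so no counting limit can be given.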
